A study of Mus musculus with 54 samples.

Results

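Solute carrier (Slc) genes encode the membrane proteins that move amino acids, sugars, metals, nucleotides, vitamins and ions across the outer membrane of the cell and the membranes of its organelles. They were followed here through the development of the mouse mammary gland. The array held 176 probe sets for 144 genes whose single symbol had the Slc form. The genes Slc34a2, Slc2a1, Slc12a2, Slc2a4, Slc27a3 and Slc25a1 (8 probe sets) were left out by name. A probe set was a member when its signal was above 22.8, the 40th percentile of the table, in each of the 3 arrays at 1 time point or more. This left 118 probe sets of 104 genes, among 8640 probe sets that passed the same filter and 12422 non-control probe sets in all. The other 58 candidate probe sets were too dim at every time point, and 40 genes had no probe set that passed. The filter used the signals themselves, so that a member that passed at few time points had to vary. It was passed at all 18 time points by 63 probe sets, at 6 to 17 by 36, at 2 to 5 by 12 and at 1 by 7. Closest to the threshold on the inside were Slc16a1, Slc25a5 (probe set 100617_at) and Slc7a8, with lowest signals at their best time point of 23.1, 23.3 and 23.6. Closest on the outside were Slc34a1, Slc1a2 and Slc26a2 at 22, 21.8 and 21.6.

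The series holds 54 arrays, 1 inguinal gland of 1 mouse per array with the lymph node taken out, and 3 mice at each of 18 time points. The groups were virgin mice at weeks 6, 10 and 12, pregnant mice at days 1, 2, 3, 8.5, 12.5, 14.5 and 17.5, lactating mice at days 1, 3 and 7, and mice at days 1, 2, 3, 4 and 20 of involution. Mating was at 12 weeks of age, and involution was brought on by removing the pups after 7 days of lactation. No strain, genotype or drug treatment is given in the labels. The glands are whole tissue, so fewer cells of a type and less RNA per cell cannot be told apart.

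The lactating gland is known as one of the most active importing tissues of the body, because its secretory epithelium draws amino acids, minerals and glucose from the blood to make milk. Carriers on the basal side of these cells take up substrates, carriers in the Golgi and secretory vesicles load zinc, calcium and nucleotide sugars for milk assembly, and mitochondrial carriers exchange nucleotides and metabolites for energy supply. After the pups are removed, milk stays in the ducts, the epithelium dies back and fat and stroma return.

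The 2% trimmed mean signal was near 100.1 in each array, and array medians ran from 31.8 to 44.6. Values lower than 9.4 (the 25th percentile) entered every mean and test as 9.4 but are given below as deposited. Means are geometric, differences are on the log2 scale with the SE of 1 limma fit over all 54 arrays, and a probe set was called at an adjusted p under 0.05. Labelled stages were checked with marker lists. The summed signal of 5 luminal secretory genes (Csn2, Wap, Lalba, Elf5, Csn1s1) was 52417 to 55763 at lactation day 7 and 616 to 832 at virgin week 12. That of 6 white adipocyte genes was 1526 to 1861 at lactation day 7 and 9982 to 10573 at virgin week 12. That of 4 fibroblast genes was 1415 to 1860 at lactation day 7 and 9622 to 10915 at virgin week 12. The sum of 6 macrophage genes was 7682 to 8523 at involution day 2 and 1620 to 1997 at lactation day 7. The basal keratin gene Krt5 was at the floor in all 3 mice at virgin week 12. The part of these shifts in the results below was not tested.

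The promoters of 4 members that lead the results below are shown from RefSeq (build GRCm38.p6), each as 300 bases from 250 before to 50 after a transcript start. They were chosen after the values were seen. Slc50a1, at chr3:89270521-89270820 on the minus strand, and Slc30a4, at chr2:122702614-122702913 on the minus strand, have 1 window each. Slc39a8, at chr3:135825407-135825706 on the plus strand, and Slc20a1, at chr2:129198523-129198822 on the plus strand, have 2 windows each, of which the one with more motif matches is shown. The Slc39a8 window lies at a transcript start inside the gene, whose span begins at chr3:135816882. Capitals mark matches, on either strand, to the letters TTCNNNGAA (the form bound by STAT factors), CACGTG (an E-box) or TGATGNAA (the amino acid response element). Slc50a1 has TGATGNAA at -189 from the start, Slc30a4 has no match, Slc39a8 has an E-box at -71, and Slc20a1 has E-boxes at -175 and -22.
Slc50a1: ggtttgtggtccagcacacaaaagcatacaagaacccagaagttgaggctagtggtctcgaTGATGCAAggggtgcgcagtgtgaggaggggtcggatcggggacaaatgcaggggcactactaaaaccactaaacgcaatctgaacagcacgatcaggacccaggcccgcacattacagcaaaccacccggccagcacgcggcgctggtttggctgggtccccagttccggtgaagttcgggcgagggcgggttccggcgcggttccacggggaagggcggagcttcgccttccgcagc
Slc30a4: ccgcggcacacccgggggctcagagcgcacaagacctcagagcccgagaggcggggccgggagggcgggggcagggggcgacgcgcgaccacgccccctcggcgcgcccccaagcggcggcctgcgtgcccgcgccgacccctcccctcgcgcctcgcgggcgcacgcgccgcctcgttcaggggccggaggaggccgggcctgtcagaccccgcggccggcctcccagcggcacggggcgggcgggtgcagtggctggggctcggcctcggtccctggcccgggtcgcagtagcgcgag
Slc39a8: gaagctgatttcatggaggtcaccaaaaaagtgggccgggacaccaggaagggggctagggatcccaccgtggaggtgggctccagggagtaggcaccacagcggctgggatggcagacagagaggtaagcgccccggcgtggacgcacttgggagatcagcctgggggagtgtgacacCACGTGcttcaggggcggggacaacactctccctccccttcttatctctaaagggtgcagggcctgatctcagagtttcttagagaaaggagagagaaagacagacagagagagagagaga
Slc20a1: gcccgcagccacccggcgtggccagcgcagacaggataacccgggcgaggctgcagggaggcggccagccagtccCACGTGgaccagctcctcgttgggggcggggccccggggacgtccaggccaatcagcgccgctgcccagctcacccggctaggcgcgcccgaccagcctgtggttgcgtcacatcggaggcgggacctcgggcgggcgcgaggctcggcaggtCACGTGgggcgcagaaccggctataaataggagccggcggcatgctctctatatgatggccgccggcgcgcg
Windows were found for 86 of the 104 member genes, 124 in all. TTCNNNGAA was in 2.42% of the member windows and 8.3% of all 32851 windows, CACGTG in 11.3% and 7.15%, and TGATGNAA in 4.03% and 3.97%. These are matches of letters and say nothing of binding.

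Over the whole course, 94 of the 118 members (79.7%) differed among the 18 time points in the moderated F test, against 88.1% of all tested probe sets. The 24 that were not called included the monocarboxylate carrier Slc16a1 and the zinc carriers Slc39a3, Slc39a9 and Slc30a9. The ratio of the highest to the lowest time point mean ran from 1.36 for Slc10a3 to 48.8 for Slc39a8. The mean was highest at lactation day 7 for 32 members (27.1%, against 17.2% of all tested probe sets), at lactation day 1 for 14 (11.9% against 5.02%) and at lactation day 3 for 14 (11.9% against 7.91%). The heat map of all members shows these time courses by substrate class.

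**Figure D1:**
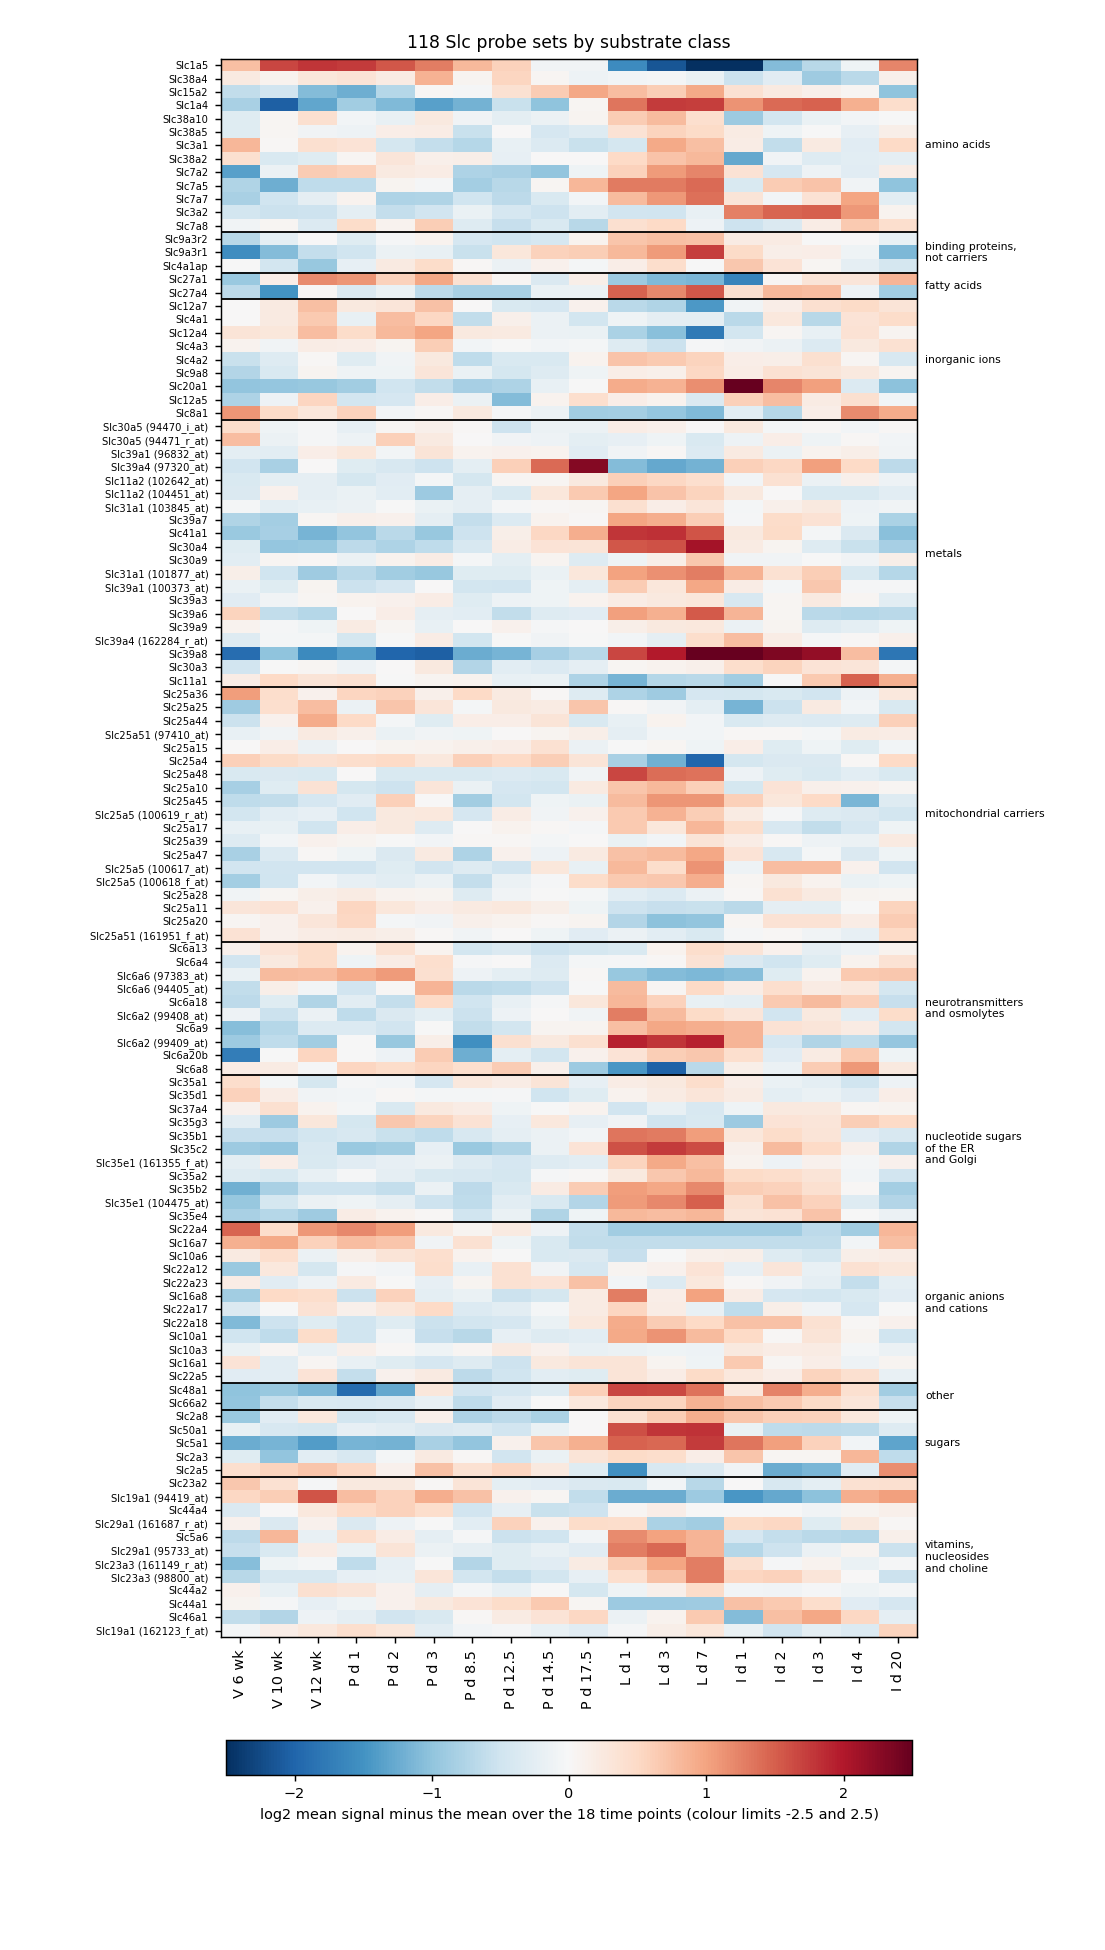
Heat map of the 118 Slc probe sets (rows, grouped by substrate class) over the 18 time points (columns; V virgin, P pregnancy, L lactation, I involution). Colour is the log2 mean signal of 3 mice minus the probe set's own mean over time points, and 32 members have their highest mean at lactation day 7.

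The largest set of calls lay between lactation day 7 and virgin week 12, where 48 members were higher and 17 lower. This is 55.1% of the members, and 51.6% of all tested probe sets were called. Split by direction, 40.7% of members and 24.3% of all probe sets were called higher, while 14.4% of members and 27.2% of all probe sets were called lower. The median log2 difference was 0.44 over members and -0.01 over all probe sets. At involution day 2 against lactation day 7, 12 members were higher and 29 lower, 34.7% of members against 31.9% of all probe sets. There 24.6% of members and 14.7% of all were called lower, and 10.2% of members and 17.2% of all were called higher. The median differences were -0.31 over members and -0.00 over all.

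The metal carriers held the member with the largest rise. Of 20 metal probe sets (15 genes) 12 were higher and 2 lower at lactation day 7 against virgin week 12, beside 24.3% and 27.2% of all probe sets. The 20 include probe set 100373_at of Slc39a1, which passed the signal filter at lactation day 7 alone. The counts of this class are therefore a description. Slc39a8 (ZIP8), a plasma membrane importer of zinc, manganese and iron, had 1377, 1410.2 and 1298 at lactation day 7, against 42.8, 51.6 and 67.9 at virgin week 12. All lactating mice were far above all virgin mice, a log2 difference of 4.68 ± 0.39 (adjusted p 2.34e-13). Through the virgin weeks and up to pregnancy day 17.5 its means stayed between 39.0 and 99.2. At lactation day 1 it had 267, 687 and 705, against 85.3, 107 and 107 at pregnancy day 17.5 (2.35 ± 0.39, adjusted p 1.99e-05). The groups did not overlap, but lactation day 1 replicate A was well below the other lactating mice. Day 7 was above day 1 of lactation by 1.43 ± 0.39 (adjusted p 0.0219). That call was lost when lactation day 1 replicate A was left out (adjusted p 0.248) and when any 1 array of lactation day 7 was left out (0.0553 to 0.0611). The highest mean came after the pups were removed, 1903 at involution day 1, and was followed by 807, 733, 274 and 45.6 at days 2, 3, 4 and 20.

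Slc30a4 (ZnT4) loads zinc into vesicles, and its loss in the mouse mutant lethal milk leaves the milk short of zinc. It had 788, 731 and 852 at lactation day 7, against 100.1, 103 and 90 at virgin week 12 (3.02 ± 0.24, adjusted p 7.53e-14). It was already higher at pregnancy day 14.5 than at virgin week 12 (275, 256 and 187 against 100.1, 103 and 90; 1.28 ± 0.24, adjusted p 0.000185), with no overlap. At involution day 2 it had 207, 211 and 176, against the lactation day 7 values above (-2.0 ± 0.24, adjusted p 1.42e-08). Its mean was 216 at involution day 1, the day on which Slc39a8 had its highest mean. A second Slc30a4 probe set, 161230_r_at, was too dim to be a member.

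The zinc importer Slc39a4 (ZIP4), best known from the intestine, ran against this course on probe set 97320_at. Its means were 51.8, 91 and 168 at pregnancy days 12.5, 14.5 and 17.5. At lactation day 1 it had 27.3, 6.7 and 16.9, against 133, 169 and 210.4 at pregnancy day 17.5. The groups lay far apart (-3.36 ± 0.46, adjusted p 7.06e-07). With 1 of these lactating mice under the floor, the size of the difference depends on the floor. Means were 14.1 and 15.2 at lactation days 3 and 7, where some mice were under the floor. At involution day 2 it had 45.8, 50.9 and 50.7, against 39.6, 4.8 and 7.5 at lactation day 7 (1.69 ± 0.46, adjusted p 0.00367). That call was lost in a fit of only the 6 arrays compared (adjusted p 0.0699). The other Slc39a4 probe set, 162284_r_at, did not share this course (r = 0.105 between the 2 probe sets over the 18 time point means, a description). It had 189.8, 212 and 252 at lactation day 1, against 234, 193 and 249 at pregnancy day 17.5, and the groups overlapped. The gene's course therefore differs by the probe set read.

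Other metal carriers rose with lactation. Slc41a1, a magnesium carrier, had 373, 628 and 536 at lactation day 7, against 63, 71.7 and 95.2 at virgin week 12 (2.73 ± 0.21, adjusted p 1.95e-14). It was already higher in pregnancy, with 259, 190.4 and 289 at pregnancy day 14.5 (1.68 ± 0.21 against virgin week 12, adjusted p 8.79e-08), above each virgin mouse. Slc31a1 (CTR1), the copper importer, had 675, 617 and 641 at lactation day 7, against 145, 143 and 145 at virgin week 12 on probe set 101877_at (2.16 ± 0.21). On its other probe set, 103845_at, the rise was 0.49 ± 0.17, in the same direction and smaller. Slc39a6 (ZIP6), a zinc importer, had 199.5, 137 and 124 at lactation day 7, against 35.1, 32.6 and 26.8 at virgin week 12 (2.26 ± 0.35, adjusted p 6.63e-07). None of the lactating mice of these carriers fell within the virgin range. Slc39a7 (ZIP7), which releases zinc from the endoplasmic reticulum, had its highest mean at lactation day 1, 611, against 314 at pregnancy day 17.5 (0.96 ± 0.20, adjusted p 0.000493). Slc11a2 (DMT1), an importer of iron, was higher at lactation day 7 than at virgin week 12 on both probe sets (0.64 ± 0.21 and 0.78 ± 0.30).

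By involution day 2, 6 of the 20 metal probe sets were lower than at lactation day 7 and 2 higher, beside 14.7% and 17.2% of all probe sets. The 2 were Slc39a4 (97320_at) and Slc11a1, the metal carrier of the macrophage phagosome, which was picked out after its values were seen. Slc11a1 had 53, 90.4 and 44.9 at involution day 2, against 31.4, 56.4 and 30.7 at lactation day 7 (0.66 ± 0.26, adjusted p 0.0495). The groups overlapped. Its mean was highest at involution day 4, 168. All 6 macrophage markers were also higher at involution day 2 than at lactation day 7, and their part in the Slc11a1 signal was not tested. The plot of metal carriers by mouse shows the opposite steps of Slc39a4 and the other carriers between late pregnancy and lactation.

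**Figure D2:**
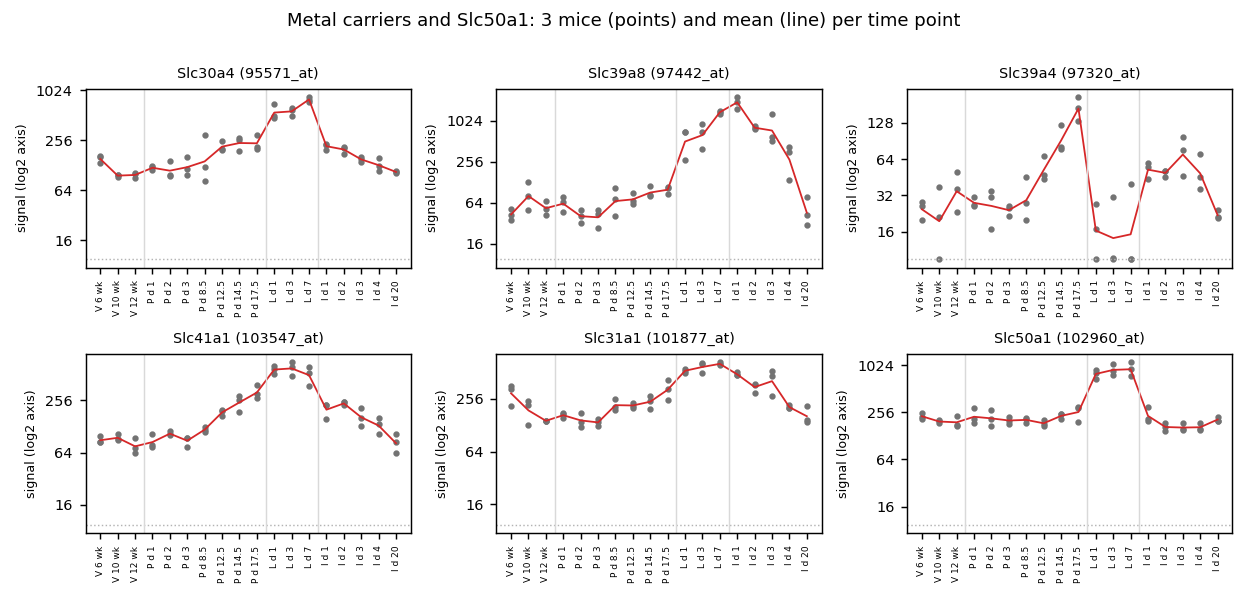
Signal of 5 metal carriers and Slc50a1 in each mouse (points, log2 axis) with the geometric mean of 3 mice (line) at the 18 time points; the dotted line is the floor of 9.4, on which lower values are drawn. Slc39a4 (97320_at) has 133 to 210.4 at pregnancy day 17.5 and at most 39.6 in lactation, where the other carriers are high.

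Among the 5 sugar carriers 2 were higher and none lower at lactation day 7 against virgin week 12, beside 24.3% and 27.2% of all probe sets. Slc50a1 (SWEET1) carries glucose and is present on membranes of the Golgi and the cell surface. Its means lay between 185 and 258 up to pregnancy day 17.5. On lactation day 1 it had 685, 892 and 803, against 302, 293 and 193 at pregnancy day 17.5 (1.61 ± 0.18, adjusted p 2.52e-08), and the groups stood well apart. It then had 1119, 736 and 901 at lactation day 7, against 169.9, 229 and 178 at virgin week 12 (2.25 ± 0.18). By involution day 2 it had 168, 185 and 147, a fall of 5.45-fold against lactation day 7 (-2.45 ± 0.18, adjusted p 4.65e-14) and the largest fall of any member in that comparison. Its mean at involution day 1 was 229.8, within the range of the virgin and pregnant means. The sodium-coupled glucose carrier Slc5a1 (SGLT1) had 87.4, 84.5 and 80.3 at lactation day 7, against 4.8, 3.3 and 6.7 at virgin week 12. All virgin mice were under the floor, so it was at least 8.94-fold higher (adjusted p 1.37e-13). It climbed through pregnancy, with means of 27, 40.1 and 46 at days 12.5, 14.5 and 17.5. The fructose carrier Slc2a5 (GLUT5) had a mean of 22.8 at lactation day 7 and 47.4 at virgin week 12, a difference that was not called (-1.06 ± 0.49, adjusted p 0.0693).

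In the class of nucleotide sugar carriers of the endoplasmic reticulum and Golgi, 8 of 11 probe sets were higher at lactation day 7 than at virgin week 12 and none lower. Of all probe sets, 24.3% were higher and 27.2% lower. The class was set by family number, and not every member is known to carry a nucleotide sugar. It holds the ATP carrier Slc35b1 and the orphan carrier Slc35e1 (2 probe sets). The median difference of the class was 1.13, against -0.01 over all probe sets. Slc35c2, a Golgi protein tied to fucosylation, had 347, 349.7 and 338 at lactation day 7, against 79, 95.7 and 79.3 at virgin week 12 (2.03 ± 0.24, adjusted p 2.92e-09). Slc35b2, which carries the sulfate donor PAPS into the Golgi, had 630.1, 588 and 532 at lactation day 7, against 153, 208 and 169.7 at virgin week 12 (1.73 ± 0.22). Slc35b1, which brings ATP into the endoplasmic reticulum, had 1088, 1088 and 920.4 at lactation day 7, against 368, 375 and 346 at virgin week 12 (1.5 ± 0.23). In each of these the 3 lactating mice lay above the 3 virgin mice. The UDP-galactose carrier Slc35a2, whose substrate is used for lactose, was higher by 0.99 ± 0.29 (adjusted p 0.00383). Slc35b1 had its highest mean at lactation day 1, 1266, against 476 at pregnancy day 17.5 (1.41 ± 0.23). At involution day 2 against lactation day 7, 4 of the 11 were lower and none higher, beside 14.7% and 17.2% of all probe sets. Among the 4 were Slc35c2 (-0.84 ± 0.24) and Slc35b2 (-0.63 ± 0.22).

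Amino acid carriers moved both ways, and the widest split lay within 1 family. Of 13 probe sets, 6 were higher and 1 lower at lactation day 7 against virgin week 12, beside 24.3% and 27.2% of all probe sets. Slc1a5 (ASCT2), a sodium-dependent exchanger of glutamine and other neutral amino acids, had 29.8, 45.2 and 42.7 at lactation day 7, against 834, 947 and 697 at virgin week 12. The virgin mice were all far above the lactating mice, a fall of 21.2-fold (-4.41 ± 0.33, adjusted p 1.55e-14). It was the largest fall among members in that comparison. The decline began in pregnancy: Slc1a5 had 220.4, 183 and 268 at pregnancy day 14.5 (-1.89 ± 0.33 against virgin week 12, adjusted p 6.82e-05). It dropped again at lactation day 1, with 94.7, 82 and 64.5, against 146, 288 and 263 at pregnancy day 17.5 (-1.49 ± 0.33). Its mean was 29.2 at involution day 1 and 548 at involution day 20. In white adipocyte genes, 5 of 6 tested were also lower at lactation day 7 than at virgin week 12, and their part in the Slc1a5 signal was not tested.

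Its relative Slc1a4 (ASCT1), an exchanger of alanine, serine and cysteine, went the other way. Slc1a4 had 259.7, 247 and 333 at lactation day 7, against 26.7, 40 and 36.1 at virgin week 12 (3.04 ± 0.45, adjusted p 3.07e-07), with no overlap. On lactation day 1 it had 234, 209.6 and 196, against 108, 69 and 87.6 at pregnancy day 17.5 (1.29 ± 0.45). It was 1 of 2 members called between involution day 20 and virgin week 12, with 77, 129.6 and 148 at involution day 20 and the virgin values above (1.75 ± 0.45, adjusted p 0.0192). That call was lost when virgin week 12 replicate A or C or involution day 20 replicate B or C was left out (adjusted p 0.0518 to 0.116).

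Slc7a5 (LAT1) imports large neutral amino acids and works as a pair with the heavy chain Slc3a2, but the 2 were called in opposite directions at involution day 2 against lactation day 7. Slc7a5 had 333, 506 and 638 at lactation day 7, against 109, 136 and 99.3 at virgin week 12 (2.07 ± 0.25, adjusted p 3.12e-09), and all lactating mice were higher. By involution day 2 it had 294, 312 and 222, below all lactation day 7 mice (-0.80 ± 0.25, adjusted p 0.0112). Its mean at involution day 1 was 135. Slc3a2 had 637, 452 and 713 at lactation day 7 and 425, 396 and 615 at virgin week 12, and the groups overlapped (0.33 ± 0.19, adjusted p 0.155). By involution day 2 it had 2061, 1669 and 1857, each above every lactation day 7 mouse (1.65 ± 0.19, adjusted p 7.71e-09). Its means at involution days 1, 2, 3, 4 and 20 were 1605, 1856, 1906, 1431 and 719.7. Slc3a2 also pairs with other light chains, of which Slc7a7 had 94.2 at involution day 2 and 257 at lactation day 7 (-1.45 ± 0.24).

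Of the remaining amino acid carriers, Slc7a2 (CAT2), an importer of arginine and lysine, fell at involution day 2, with 33.6, 25.8 and 24.5, against 73.5, 84 and 103 at lactation day 7 (-1.64 ± 0.31). Earlier it had been lower at pregnancy day 14.5, with 22.2, 21.2 and 14.1, than at virgin week 12, with 44.5, 68 and 62.1 (-1.61 ± 0.31, adjusted p 0.000249). The peptide carrier Slc15a2 (PEPT2) had 37, 36.6 and 41.6 at pregnancy day 14.5, against 17.5, 6.6 and 7.1 at virgin week 12 (1.73 ± 0.39), and was 2.04 ± 0.39 higher at lactation day 7. Slc38a2 (SNAT2), a sodium-coupled importer of small neutral amino acids, was higher at lactation day 7 than at virgin week 12 (1.12 ± 0.24) and lower at involution day 2 than at lactation day 7 (-0.91 ± 0.24). The arginine carrier Slc7a1 was too dim to be a member. The plot of related carriers sets the pairs side by side.

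**Figure D3:**
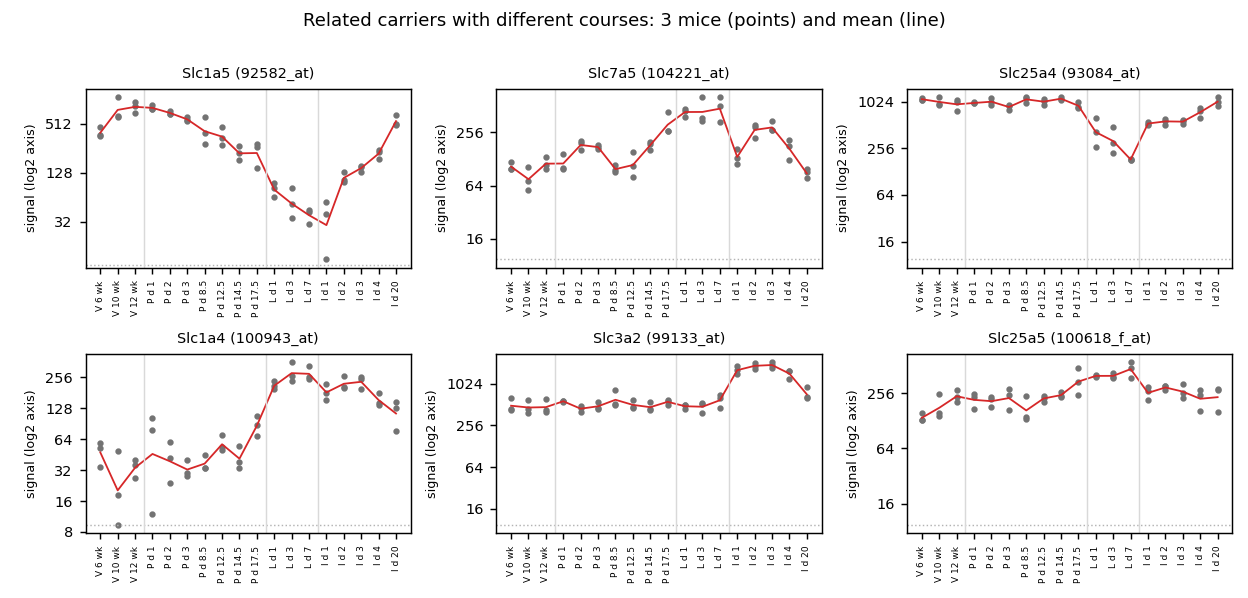
Signal in each mouse (points, log2 axis) and geometric mean of 3 mice (line) at the 18 time points for 3 pairs, one above the other: Slc1a5 and Slc1a4, Slc7a5 and Slc3a2, Slc25a4 and Slc25a5 (100618_f_at). The upper and lower panel of a pair have different courses, with Slc1a5 between 29.8 and 45.2 and Slc1a4 between 247 and 333 at lactation day 7.

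Of the 19 probe sets (16 genes) in the class of mitochondrial carriers 7 were higher and 4 lower at lactation day 7 against virgin week 12, where 24.3% of all probe sets were higher and 27.2% lower. The 19 include Slc25a48 and probe set 100617_at of Slc25a5, which passed the signal filter at few time points. The counts are therefore a description. Slc25a4 (ANT1) and Slc25a5 (ANT2) both exchange ADP for ATP across the inner membrane. Slc25a4 had 182, 187 and 180.4 at lactation day 7, against 1081, 1001 and 781 at virgin week 12 (-2.37 ± 0.19, adjusted p 1.23e-13). The 3 lactating mice were close together and all far below the virgin mice. It was lower at lactation day 1, with 636, 268 and 414, against 850.0, 1009 and 864 at pregnancy day 17.5 (-1.13 ± 0.19, not called in a fit of the 6 arrays alone, adjusted p 0.0625), and was lower again at day 7 than at day 1 (-1.17 ± 0.19, adjusted p 9.49e-05). By involution day 2 it had 619, 578 and 517, above all lactation day 7 mice (1.64 ± 0.19). Slc25a5 rose at lactation day 7 on the 2 probe sets that passed the signal filter at all 18 time points. On 100618_f_at it had 562, 488 and 380.0, against 281, 234 and 204 at virgin week 12 (0.99 ± 0.24, adjusted p 0.000622), without overlap. Probe set 100619_r_at gave 0.82 ± 0.31. The third probe set, 100617_at, passed the filter at lactation day 7 alone and is no separate evidence of the rise. The ANT genes are close in sequence, and cross-hybridisation between them was not tested.

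Slc25a20, which brings acylcarnitines into the mitochondrion for fat burning, had 103, 155 and 109 at lactation day 7, against 284, 276 and 326 at virgin week 12 (-1.29 ± 0.18, adjusted p 1.03e-07). It was higher again at involution day 2, with 336, 261 and 329 (1.35 ± 0.18 against lactation day 7). Slc25a48, a mitochondrial carrier, had 33.6, 33.3 and 52.7 at lactation day 1, against 17.3, 3 and 3 at pregnancy day 17.5. It passed the signal filter at 2 time points, with its best at lactation day 1, so these values are a description. Outside lactation its means did not pass 12.2, close to the floor. Slc25a17, a peroxisomal carrier of nucleotide cofactors, was higher at lactation day 7 than at virgin week 12 (1.33 ± 0.19) and lower at involution day 2 than at lactation day 7 (-1.23 ± 0.19). The dicarboxylate carrier Slc25a10 had means of 678 at lactation day 7 and 577 at virgin week 12, a difference that was not called (adjusted p 0.594).

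Both fatty acid transport proteins among the members were called in opposite directions. Slc27a1 (FATP1), abundant in fat and muscle, had 159, 212 and 222 at lactation day 7, against 1118, 1005 and 854 at virgin week 12 (-2.33 ± 0.36, adjusted p 8.21e-07). Slc27a4 (FATP4) had 127, 126 and 142 at lactation day 7, against 40.1, 67.6 and 35.2 at virgin week 12 (1.53 ± 0.43, adjusted p 0.00269). In neither gene did the groups overlap. At lactation day 1 against pregnancy day 17.5 Slc27a4 was higher (1.61 ± 0.43) and Slc27a1 lower (-1.07 ± 0.36, adjusted p 0.0281). The Slc27a1 call at that step was lost without lactation day 1 replicate B (adjusted p 0.145), lactation day 1 replicate C (0.0608) or pregnancy day 17.5 replicate B (0.226). The fall of white adipocyte and fibroblast markers at lactation day 7 ran with that of Slc27a1. At virgin week 6 Slc27a1 was lower than at week 12 (values below). The white adipocyte sum was 10008 to 11827 at week 6, and the fibroblast sum 16808 to 18075. The sum of 5 skeletal muscle genes ran from 128 to 5073 at week 6 and from 181 to 2699 at week 12. The part of these markers in the Slc27a1 signal was not tested.

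Of 9 inorganic ion carriers 1 was higher and 3 lower at lactation day 7 against virgin week 12, beside 24.3% and 27.2% of all probe sets. The riser was Slc20a1 (PiT1), a sodium-dependent phosphate importer, with 330.3, 256 and 203 at lactation day 7, against 62.5, 61.7 and 53.6 at virgin week 12 (2.13 ± 0.29, adjusted p 5.89e-08). Its values at involution day 1 were 1198, 808 and 627, higher than in any mouse of the other 17 time points, and 291, 172 and 378 at involution day 2. Involution day 1 was not set against lactation day 7 in a test, and day 2 did not differ by the test (0.05 ± 0.29, adjusted p 0.927). The potassium-chloride cotransporters Slc12a4 (KCC1) and Slc12a7 (KCC4), which let salt out of swollen cells, fell together. Slc12a4 had 13.9, 16.1 and 19.2 at lactation day 7, against 72.4, 105 and 111 at virgin week 12 (-2.54 ± 0.45). Slc12a7 had 24.6, 41.8 and 15 at lactation day 7, against 114, 114 and 115 at virgin week 12 (-2.20 ± 0.32). Both were higher again at involution day 2, with 61, 51 and 60.1 for Slc12a4 and 71.6, 89.4 and 68.6 for Slc12a7, each above all lactation day 7 mice (1.81 ± 0.45 and 1.61 ± 0.32). The sodium-calcium exchanger Slc8a1 was the other gene to fall at lactation day 7 (-1.39 ± 0.35).

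The carriers of vitamins, nucleosides and choline gave 4 higher and 3 lower of 12 at lactation day 7 against virgin week 12. These counts lie near the shares of all probe sets, 24.3% higher and 27.2% lower. The nucleoside carrier Slc29a1 (ENT1) had 535, 648 and 553 at lactation day 1, against 182, 211 and 192 at pregnancy day 17.5 on probe set 95733_at (1.56 ± 0.22, adjusted p 1.56e-06), and 158, 186 and 151 at involution day 2, against 300.4, 524 and 498 at lactation day 7 (-1.38 ± 0.22). Its other probe set, 161687_r_at, was not called at either step, and the 2 ran against each other over the 18 time point means (r = -0.445, a description). Slc5a6, which imports biotin and pantothenate, had 168, 304 and 385 at lactation day 1, against 131, 138 and 80.9 at pregnancy day 17.5 (1.25 ± 0.37, adjusted p 0.0129). The choline carrier Slc44a1 had 98, 78.8 and 87.7 at lactation day 7, against 120.4, 170.4 and 135 at virgin week 12 (-0.68 ± 0.27, adjusted p 0.0302). It had 251, 259 and 256 at involution day 2, above all mice of lactation day 7 (1.54 ± 0.27, adjusted p 1.42e-05). The reduced folate carrier Slc19a1 had 20.3, 19.6 and 22.9 at lactation day 7, against 182, 76.3 and 115 at virgin week 12 on probe set 94419_at (-2.48 ± 0.41), without overlap. Its other probe set, 162123_f_at, was not called there (0.01 ± 0.24, adjusted p 0.969).

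Carriers of organic ions and neurotransmitters are counted beside the 51.6% of all probe sets called at lactation day 7 against virgin week 12. Of 12 organic anion and cation probe sets 1 was higher and 2 lower. The cation carrier Slc22a4 (OCTN1) had 6, 5 and 4.1 at lactation day 7, all under the floor, against 45.7, 35.9 and 29.9 at virgin week 12. It was thus at least 3.89-fold lower (adjusted p 1.62e-08). The monocarboxylate carrier Slc16a7 (MCT2), with all lactation day 7 mice under the floor too, was at least 2.29-fold lower. Slc22a4 passed the signal filter at 5 time points, with its best at virgin week 6, and Slc16a7 at 3, with its best at virgin week 10. Both are members only through the time points where they are high, so these falls are a description. Of 10 neurotransmitter and osmolyte probe sets 2 were higher and 1 lower. The noradrenaline carrier Slc6a2 had 92.6, 116 and 119.9 at lactation day 7, against 19.1, 21.6 and 8.6 at virgin week 12 on probe set 99409_at (2.79 ± 0.47, adjusted p 4.03e-06). On 99408_at the difference was 0.62 ± 0.51 and was not called (adjusted p 0.318). The taurine carrier Slc6a6 had 58.9, 86.1 and 92.7 at lactation day 7, against 279, 351 and 252 at virgin week 12 on probe set 97383_at (-1.90 ± 0.33). Its other probe set, 94405_at, did not follow it (r = -0.222 over the time point means, a description). The creatine carrier Slc6a8 had its lowest mean at lactation day 3, where all 3 mice were under the floor, and its highest at involution day 4, 81.3.

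Symbols of the Slc form also take in proteins that carry no solute. The scaffold protein Slc9a3r1 (NHERF1), which anchors carriers at the apical membrane, had 829, 983 and 764 at lactation day 7, against 163, 201 and 156 at virgin week 12 (2.31 ± 0.22, adjusted p 5.97e-12). It increased in steps, with 427, 363 and 370.4 at pregnancy day 14.5 (1.16 ± 0.22 against virgin week 12) and a further rise at lactation day 7 over day 1 (0.91 ± 0.22, adjusted p 0.00665). The rise over lactation day 1 was not called without lactation day 1 replicate A (adjusted p 0.0754). By involution day 2 it had 279.6, 275 and 308 (-1.57 ± 0.22 against lactation day 7). The heme carrier Slc48a1 had 373, 328 and 268 at lactation day 7, against 109.5, 25.8 and 66.5 at virgin week 12 (2.48 ± 0.50, adjusted p 5.96e-05). Slc66a2 was higher by 1.25 ± 0.16. The virgin mice of Slc48a1 were widely spread, but none reached a lactating mouse.

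At the start of lactation most of the called members were higher. At lactation day 1 against pregnancy day 17.5, 25 members were higher and 7 lower (27.1% of members and 23.3% of all probe sets called). Higher calls made up 21.2% of members and 10.1% of all probe sets, and lower calls 5.93% and 13.2%. Without pregnancy day 17.5 replicate C, 14 were higher and 7 lower. After Slc39a8, the largest rises were in the orphan carrier Slc35e1 (1.80 ± 0.43 on probe set 104475_at), Slc50a1 and Slc27a4, leaving aside Slc25a48, which passed the signal filter at 2 time points. Without pregnancy day 17.5 replicate C the Slc35e1 difference was 0.81 and not called (adjusted p 0.0999), and it was not called in a fit of only the 6 arrays compared (0.167). Only 4 members, 3 higher and 1 lower, were called between lactation days 7 and 1 (3.39% of members and 5.29% of all probe sets, 2.41% higher and 2.88% lower): Slc39a8, Slc9a3r1 and the mitochondrial glutathione carrier Slc25a39 were higher and Slc25a4 lower. Slc25a39 had 879, 791 and 863 at lactation day 7, against 614, 564 and 629.8 at lactation day 1 (0.49 ± 0.14, adjusted p 0.0367), a call lost when any 1 of the 6 arrays was left out (adjusted p 0.0502 to 0.111). In a fit of only the 6 arrays compared none of the 4 was called (adjusted p 0.0893 to 0.167). Scaling to a common median gave 2 higher and 2 lower. In all, 1 member was called without lactation day 1 replicate A, and 2 without lactation day 7 replicate A or C. The plot by class shows how the differences of each class spread in the main comparisons.

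**Figure D4:**
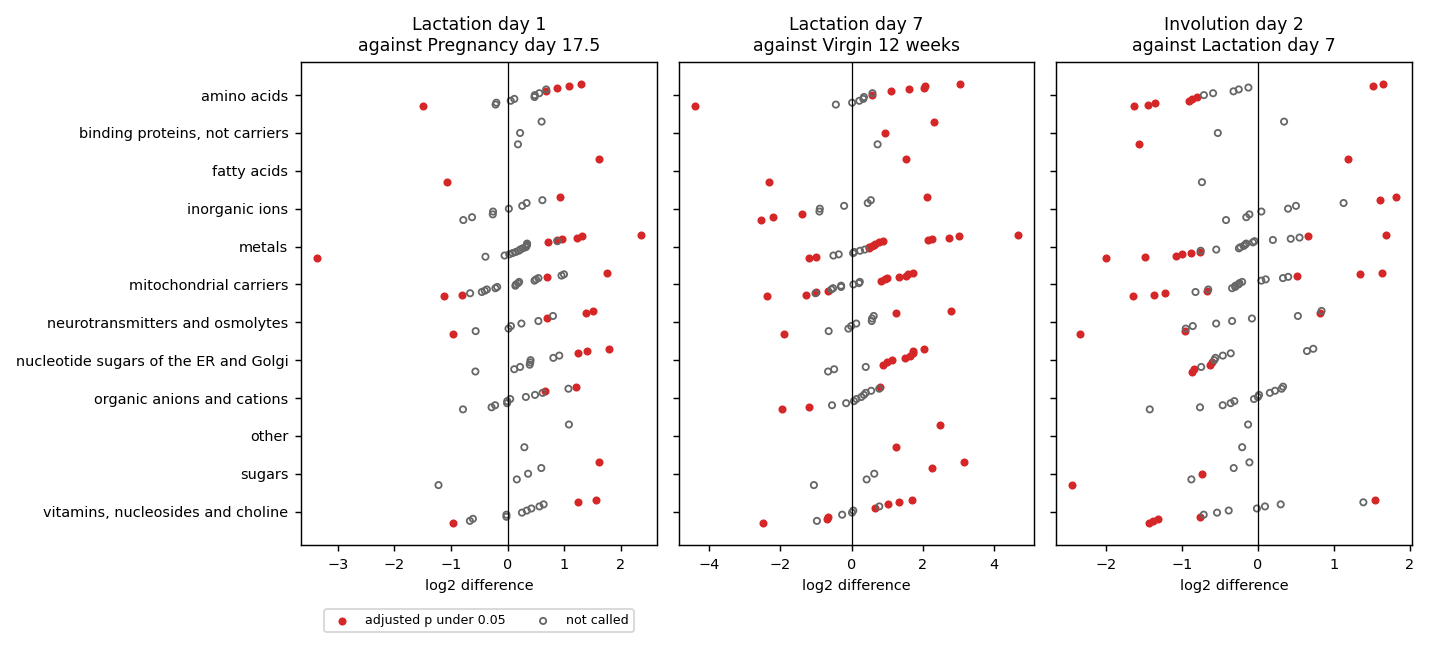
Log2 difference of each Slc probe set (points, filled where the adjusted p was under 0.05) by substrate class, for lactation day 1 against pregnancy day 17.5, lactation day 7 against virgin week 12 and involution day 2 against lactation day 7. The 11 probe sets of the nucleotide sugar class, set by family number, include 8 called above zero and none below it at lactation day 7.

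Before lactation the members were called at about the rate of all probe sets. At pregnancy day 14.5 against virgin week 12, 13 were higher and 11 lower (20.3% of members and 17.7% of all probe sets, 8.82% higher and 8.85% lower). After the arrays were scaled to a common median, 17 were higher and 9 lower, and leaving out pregnancy day 14.5 replicate A or B left 15 calls. The risers were led by Slc5a1 (33.9, 41.5 and 45.7 at pregnancy day 14.5, with all virgin week 12 mice under the floor, at least 4.26-fold), Slc15a2 and Slc41a1, and the members that fell by Slc1a5, Slc7a2 and Slc27a1. Slc39a4 (97320_at) had 122, 77.6 and 80 at pregnancy day 14.5, against 49.6, 35.9 and 23.2 at virgin week 12 (1.40 ± 0.46, adjusted p 0.0282), and this call was lost in 4 of the 6 fits that left out 1 array (adjusted p 0.0513 to 0.136).

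Between virgin weeks 12 and 6, 24 members were higher and 10 lower (28.8% of members and 29.8% of all probe sets, 17.2% higher and 12.5% lower). Signal at the 3′ end of a transcript over that at its 5′ end, a measure of RNA quality, moved both ways in this comparison. For Gapdh the mean ratio was 3.95 at week 12 and 2.58 at week 6. For beta-actin it was 1.99 ± 0.487 at week 12 and 3.75 ± 0.363 at week 6 (SD, n = 3 each). Once the beta-actin ratio was put into the fit 4 members were called, 3 higher (Slc6a20b, Slc27a1 and Slc7a2) and 1 lower (Slc31a1, 101877_at). So were 4.04% of all probe sets. The Gapdh ratio was not tried in any fit. The ratios differed in other comparisons too. Mean Gapdh ratios were 3.95 at virgin week 12 and 1.36 at lactation day 7, and those of beta-actin 1.99 and 1.82. At pregnancy day 17.5 and lactation day 1 they were 2.17 and 0.98 for Gapdh and 2.25 and 1.60 for beta-actin. The beta-actin fit called 68 members at lactation day 7 against virgin week 12, and 29 at lactation day 1 against pregnancy day 17.5. For virgin week 12 against week 6, scaling the arrays to a common median gave 11 higher and 11 lower. Leaving out virgin week 12 replicate B, virgin week 6 replicate A or virgin week 6 replicate C left 20 calls each. Among the larger rises, Slc27a1 had 1118, 1005 and 854 at week 12, against 172, 344 and 204 at week 6 (2.10 ± 0.36, adjusted p 0.000138). Slc7a2 had 44.5, 68 and 62.1 at week 12, against 14.3, 14.1 and 15.1 at week 6 (1.98 ± 0.31), and the imino acid carrier Slc6a20b had 55.8, 58.3 and 32.7, against 10.7, 7.6 and 6.1 (2.27 ± 0.36). The groups were apart in each. The copper carrier Slc31a1 was lower at week 12 on probe set 101877_at (-1.04 ± 0.21, adjusted p 0.000656). Its other probe set, 103845_at, was not called lower there.

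At involution day 20 against virgin week 12 few members were called: 1 was higher and 1 lower (1.69% of members and 2.64% of all probe sets, 1.27% higher and 1.37% lower), and the median difference was -0.04 over members and -0.07 over all. Scaling to a common median gave 2 higher and none lower. Beside Slc1a4, the zinc carrier Slc39a7 had 143, 216 and 185 at involution day 20, against 302, 326 and 329.8 at virgin week 12 (-0.84 ± 0.20, adjusted p 0.0106). The 3 regressed glands lay below the 3 virgin glands, but the call was lost without virgin week 12 replicate B or C or involution day 20 replicate A (adjusted p 0.0501 to 0.126) and with arrays scaled to a common median (0.0599). A difference missed by 3 mice against 3 is not shown to be absent.

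Transport genes outside the Slc family were counted on a list of 42 pumps, channels and ABC carriers, of which 27 were tested. At lactation day 7 against virgin week 12, 9 were higher and 8 lower, beside 24.3% of all probe sets called higher and 27.2% lower. The breast cancer resistance protein Abcg2, which secretes vitamins and drugs into milk, had a mean of 1815 at lactation day 7 and 79.5 at virgin week 12 (4.51 ± 0.33). The calcium pump Atp2b2, which moves calcium into milk, had 174 at lactation day 7, with all virgin week 12 mice under the floor. The potassium channel Kcnk1 had 919 at lactation day 7 and 93.1 at virgin week 12 (3.3 ± 0.31), and the sodium pump regulator Fxyd1 had 73.8 and 654 (-3.15 ± 0.37). At involution day 2 against lactation day 7, 6 were higher and 6 lower (17.2% and 14.7% of all probe sets). Abcg2 fell there, with a mean of 208 (-3.12 ± 0.33 against lactation day 7). At lactation day 1 against pregnancy day 17.5, 5 were higher and 3 lower (10.1% and 13.2% of all). At lactation day 7 against day 1, 1 was higher and none lower (2.41% and 2.88% of all). At pregnancy day 14.5 against virgin week 12, 5 were higher and 6 lower (8.82% and 8.85% of all).

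Among the cell type marker lists, calls at lactation day 7 against virgin week 12 were as follows, beside 24.3% of all probe sets called higher and 27.2% lower. All 5 luminal secretory genes were higher. Of the luminal genes 1 of 5 was higher and 2 lower, and of the basal and myoepithelial genes 2 of 3 were higher. White adipocyte genes gave 5 of 6 lower, brown adipocyte genes 1 of 5 higher and 3 lower, and fibroblast genes 4 of 4 lower. Macrophage genes gave 1 of 6 higher and 5 lower, endothelial genes 1 of 4 higher and 3 lower, T cell genes 2 of 4 lower, and B and plasma cell genes 1 of 3 higher and 1 lower. No skeletal muscle (5) or erythroid (2) gene was called. At involution day 2 against lactation day 7, 17.2% of all probe sets were higher and 14.7% lower. There 3 white adipocyte, 4 fibroblast, 6 macrophage and 3 luminal genes were higher and none of these lists had a lower call. Brown adipocyte genes gave 1 higher and 2 lower, luminal secretory genes 1 lower and basal and myoepithelial genes 1 lower, and none was called in the other 5 lists. The part of these marker shifts in the Slc values was not tested.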

How the data were processed

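The authors' deposited table holds 1 MAS5 signal per probe set and array, a linear intensity on an Affymetrix mouse array, with 12488 probe sets in 54 arrays. MAS5 is named in the submitters' processing notes, with its version not given in the sources used here. Per the file headers no counts or depths exist, so the number of arrays limits precision. The deposited intensities were used without further scaling, since the 2% trimmed mean was near 100.1 in each array. The 66 control probe sets were left out. Signals were set to at least 9.4, the 25th percentile, and log2 transformed, and probe sets above 22.8, the 40th percentile, in each of the 3 arrays at 1 time point or more were kept (8640). From 20.5% to 29.7% of probe sets per array were under the floor.

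Gene symbols came from GEO's platform annotation, which gave 1 symbol for 10833 probe sets, several for 396 and none for 1193. Probe sets of a gene were kept apart. Substrate classes follow the family numbers. The classes for binding proteins and for Slc48 and Slc66 were added after the data were seen.

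Limma (3.58.1, in R 4.3.3) fitted 1 mean per time point over all 54 arrays, with an intensity trend, 36 residual and 6.8 prior degrees of freedom. P-values are two-sided and Benjamini-Hochberg adjusted over all 8640 probe sets, with calls under 0.05. Each SE is that of this fit, with 3 mice per group. The 7 comparisons share groups: virgin week 12 serves 4 of them and lactation day 7 serves 3. The fit was tested on simulated data. Where all 3 arrays of a group were under the floor a fold is given as at least that large. Tables and figures were made with matplotlib 3.10.9, numpy 2.4.6 and pandas 2.3.3 under Python 3.11.15.

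The letters A, B and C number the arrays of a time point. They are not stated to pair mice, so the fit has no block. Over 21 pairs of same-lettered groups, deviations from the group means correlated between -0.0947 and 0.0233. A small effect shared by letter could be missed by this check. The members, the list of other transport genes and the marker lists were chosen with earlier results of these data known. Named members are the 6 largest called rises and falls without overlap in each comparison, the 4 of widest range in each class, and a list of milk-related carriers. Slc11a1, Slc7a7, Slc25a20, Slc25a17, Slc16a7, Slc39a3, Slc39a9, Slc30a9 and Slc10a3 fall outside this rule and were named after their values were seen. So were Slc7a8 and Slc39a1, for their place in the signal filter. Some members picked by the rule, among them Slc25a25, Slc25a44 and Slc46a1, are not described.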

Additional observations from a re-analysis of the deposited data

How the results depend on the processing

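The count of members called was recomputed with other floors, scalings, filters, fits and with each array left out. For lactation day 7 against virgin week 12 (65) and involution day 2 against lactation day 7 (41) each setting gave a count within 1.5 times, and 54 to 62 and 32 to 40 were called with 1 array left out. For virgin week 12 against week 6 (34) the count was 22 with median scaling, 4 with the beta-actin ratio in the fit and 20 to 32 with 1 array left out. For pregnancy day 14.5 against virgin week 12 (24) it was 42 with array weights and 15 to 19 with 1 array left out. For lactation day 1 against pregnancy day 17.5 (32) it was 13 in limma on only the 6 arrays compared and 21 to 35 with 1 array left out. For lactation day 7 against day 1 (4) it was 0 in limma on the 6 arrays, where 24 members had an unadjusted p under 0.05, and 1 to 4 with 1 array left out. For involution day 20 against virgin week 12 (2) it was 6 with array weights, 0 in limma on the 6 arrays, where 13 had an unadjusted p under 0.05, and 1 to 2 with 1 array left out. The 6-array fits rest on fewer samples, and the cause of the other moves was not tested. With the replicate block the counts in the order of the 7 comparisons in time were 34, 23, 32, 4, 65, 42 and 2, within 1.5 times throughout. Median scaling shifted all probe sets by -0.20 for virgin week 12 against week 6, 0.18 for pregnancy day 14.5 and 0.14 for involution day 20 against virgin week 12. Of 66 results for named members 43 kept their call under each alternative run. Of 1177 alternative values 76 lost the call and 0 turned direction. Signals near the floor of 9.4 limit what can be said of the dimmest carriers.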
